A study of Mus musculus with 22 samples.

Results

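Indirect plasma treatment of mouse duodenal organoids was compared between 2 starting days, day 2 and day 1 after replating. The comparison used 6 of the 22 RNA-seq libraries of the series, chosen by their sample titles: 3 libraries labelled as indirect CAP application for 24 hours (called day 2 here) and 3 labelled as indirect CAP application for 30 minutes (called day 1). Each group held 1 library from each of 3 organoid lines, labelled CD1, WT2 and 2 and called lines 1, 2 and 4, so that the libraries were paired by line.

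Cold atmospheric plasma (CAP) is an ionized gas, here a helium jet run at 50 W for 60 s, that mixes with ambient air to form reactive oxygen and nitrogen species, which enter the medium without contact between the plume and the liquid. Duodenal organoids are closed epithelial cultures grown from crypt stem cells in Matrigel with EGF, Noggin and R-spondin 1. They hold cycling stem and progenitor cells together with absorptive enterocytes and secretory goblet, Paneth and enteroendocrine cells. In the indirect design the plasma was applied to 1 culture, and its conditioned medium was then given to another culture that had not been treated with the jet. A stressed epithelium is known to respond through immediate early genes, through ATF4, which raises a set of genes when translation initiation is slowed, and by leaving the cell cycle.

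All organoids came from wild-type outbred CD1 mice of 2 months, 1 mouse per line, and all were collected at day 3. Per the study's methods, the day 1 cultures received fresh conditioned medium from day 1 to day 2 and then fresh culture medium until day 3. Day 2 cultures received conditioned medium that had been made at day 1, and stayed in it from day 2 until collection. The labels give 30 minutes for the first group and 24 hours for the second, whereas the methods give 24 h for both. The starting day, the age of the conditioned medium, the interval in fresh medium before collection and the labelled time therefore changed together and cannot be told apart. Levels in 4 untreated libraries (lines 1, 2, 4 and a further line 3) are given beside the values without a test. The labels name the material stem cells. Goblet and Paneth cell genes were present as well, with sums of 64166 to 154255 and 10073 to 32324 in the 6 indirect libraries. Summed over 10 epithelial genes, the values were 150966 to 181257, whereas 8 fibroblast genes summed to 45 to 124, 8 immune genes to 66 to 197 and 6 endothelial genes to 58 to 72. These sums are over different genes, so only wide gaps between them can be read. Col3a1, Dcn and Lum (fibroblast) and Kdr and Emcn (endothelial) were at 0 in all 6.

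Values are in CP20M, reads per gene scaled by the authors to 20 M per library and not divided by gene length, so that they compare libraries for 1 gene and not genes with each other. The spacing of the low values gave 20.0 to 24.0 M reads behind the day 1 libraries and 21.1 to 22.1 M behind the day 2 libraries. A gene was called when the Benjamini-Hochberg adjusted p of limma's moderated test, with line as a block and all 18 treated libraries in the fit, was under 0.01 and the log2 fold change at least 1 in size. Fold changes are day 2 minus day 1 on the log2(CP20M + 1) scale throughout.

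Of 19206 genes tested, 382 were called, of which 110 were higher (0.573%) and 272 lower (1.42%) at day 2. These shares are the background for the counts of calls in gene lists below. Genes of the cell cycle, genes encoded by the mitochondrial genome, the peptide transporter Slc15a1 and 2 markers of crypt base cells were among those that fell. Several stress genes rose, with Nupr1, a stress-induced chromatin protein, going from 630, 747 and 944 in lines 1, 2 and 4 at day 1 to 4548, 5091 and 6027 at day 2. Set beside untreated organoids, all 110 higher genes were above the untreated mean at day 2 and 85 of them also at day 1, and 258 of the 272 lower genes were below it at day 2 and 193 at day 1 as well. These genes were chosen by their change between the days, which favours such positions at day 2. The share over all genes was not taken, and the difference from untreated organoids was not tested. The 3 libraries of a group did not overlap those of the other for 101 of the higher and 245 of the lower genes. The calls used the same values, which favours separate groups. Among all genes tested, 2239 (11.7%) had day 2 values above every day 1 value and 2725 (14.2%) below.

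The count depended on the pairing by line. Without the line as a block, 7 genes were called, 2 higher (Dusp8 and Tubb2b) and 5 lower (Pif1, Erfe, Clca3a1, Cyp2c70 and Mndal), and none of the 54 called genes that the naming rule gave. Of the 382, 190 still had an adjusted p under 0.05 and 362 an unadjusted p under 0.05. With a day 1 library left out, 223 genes (line 1), 136 genes (line 2) or 156 genes (line 4) were called. Leaving out a day 2 library gave 137 (line 1), 183 (line 2) or 290 (line 4). The paired fit on the 6 indirect libraries alone, which estimates the spread from these only, called 623 genes, 352 of them among the 382. Over all 19206 genes the median change was -0.03, and 54.4% of the fold changes were negative.

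**Figure D1:**
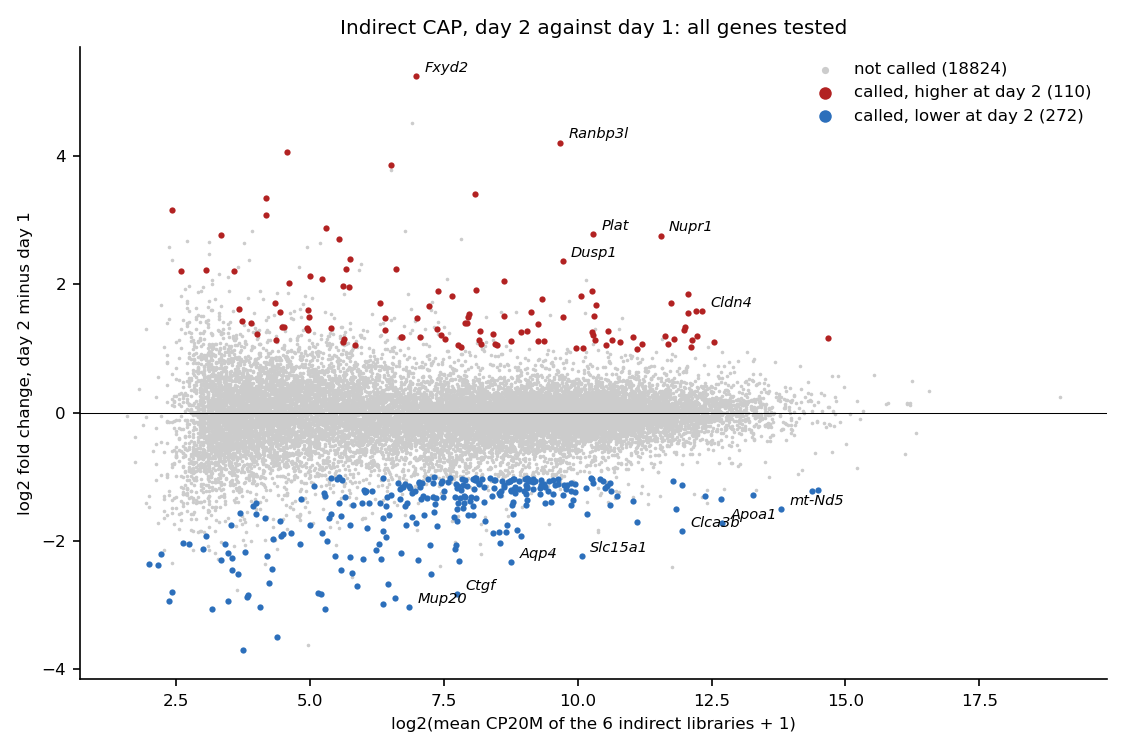
Each point is 1 of 19206 genes, placed by the log2 of its mean CP20M over the 6 indirect libraries (horizontal axis) and its log2 fold change, day 2 minus day 1 (vertical axis). The 110 genes called higher are red, the 272 called lower are blue and the others grey, and mt-Nd5, Slc15a1 and Aqp4 are among the labelled genes that fell.

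Proliferation genes had lower values at day 2, and many fell. All 54 genes of a G2/M list had a negative fold change, 27 were called lower and 0 higher against a background of 1.42% and 0.573%, and the median was -1.03. All 43 genes of an S phase list were negative as well, with 11 called lower, 0 higher and a median of -0.79. By line the G2/M median was -1.05 in line 1, -1.11 in line 2 and -0.83 in line 4, and the S phase median -0.90, -0.89 and -0.54.

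Ccnb2, the B2 cyclin of mitotic entry, had values of 693, 625 and 611 at day 1 and 273, 206 and 257 at day 2 in lines 1, 2 and 4. The groups did not overlap, and every day 2 value was under the untreated range of 790 to 947 (log2 fold change -1.39 ± 0.15 (SE), adjusted p = 9.51e-05). Mki67, which encodes the Ki-67 proliferation antigen, was 8894, 7454 and 6207 at day 1 and 3705, 2848 and 2662 at day 2, with untreated libraries at 8402 to 11723. No day 2 value reached any day 1 value (log2 fold change -1.29, adjusted p = 0.000321). Ttk, the spindle checkpoint kinase, went from 355, 344 and 320 to 146, 129 and 135 (log2 fold change -1.31, adjusted p = 0.00265). Cdk1, the mitotic kinase that B cyclins activate, and Cdc20, the activator of the anaphase-promoting complex, fell as well (log2 fold change -1.07 for Cdk1 and -1.21 for Cdc20). Further called members were the spindle motor Kif11 (-1.10), the survivin gene Birc5 (-1.20), the topoisomerase Top2a (-1.06) and the kinases Aurka (-1.06) and Aurkb (-1.03).

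Replication genes moved in the same direction at smaller size. Mcm4, a subunit of the replicative helicase, was 1557, 1456 and 1130 at day 1 and 680, 536 and 542 at day 2 and 1747 to 2483 in untreated organoids (log2 fold change -1.23 ± 0.18 (SE), adjusted p = 0.00094). The groups were separate, and line 1 had the highest value in both. Rrm2, the small subunit of ribonucleotide reductase, was 1453, 1203 and 1273 at day 1 and 593, 473 and 630 at day 2 (log2 fold change -1.22, adjusted p = 0.00106), and Uhrf1, which keeps DNA methylation through replication, was 2293, 2145 and 1612 at day 1 and 938, 948 and 771 at day 2 (log2 fold change -1.18, adjusted p = 0.000756). Mcm5 (-1.14), the origin licensing factor Cdc6 (-1.02) and the checkpoint mediator Clspn (-1.15) were called too, whereas the sliding clamp gene Pcna was not (log2 fold change -0.26, adjusted p = 0.325). The number of G2/M genes called was 11 without the day 2 library of line 1, 12 without the day 1 library of line 2 and 18 to 31 without the others. For S phase it was 4 without the day 2 library of line 1, 6 without the day 1 library of line 2, the day 1 library of line 4 or the day 2 library of line 2, and 9 to 11 without the others. Without the block 0 of either list were called. In bulk RNA, fewer cycling cells and less RNA of these genes per cell cannot be told apart.

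Promoters of the list's members are shown because many G2/M genes share the same short elements, the cell cycle homology region (CHR, searched as TTTGAA) and the CCAAT box (searched as CCAAT), while S phase genes often carry an E2F site (searched as TTTNNCGC). Both strands were searched in windows from 250 bases before to 50 bases after the start of transcription, taken from RefSeq (GRCm38.p6). Of the 54 G2/M genes, 47 had 52 such windows, of which 34 held the CHR (65.4%) and 39 the CCAAT box (75%). Among all 32851 windows of the table the shares were 17.9% and 37.4%. The shares of the G2/M list describe the list as chosen and would be the same whatever its members' values. Windows were found for 31 of the 43 S phase genes (72.1%), too few for a share of that list. In the Ccnb2 window (chr9:70421505-70421804, minus strand) the capitals mark 2 CHR and 3 CCAAT matches, and in the Mcm5 window (chr8:75109259-75109558, plus strand) they mark 2 overlapping E2F matches, 1 on each strand. A match is a stretch of letters and not a measured binding site.
Ccnb2: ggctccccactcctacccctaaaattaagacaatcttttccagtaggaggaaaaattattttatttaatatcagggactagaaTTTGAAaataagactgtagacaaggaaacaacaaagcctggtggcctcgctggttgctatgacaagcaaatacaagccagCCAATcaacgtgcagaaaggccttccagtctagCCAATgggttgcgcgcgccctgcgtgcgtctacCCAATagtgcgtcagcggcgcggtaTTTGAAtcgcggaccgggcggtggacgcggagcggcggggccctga
Mcm5: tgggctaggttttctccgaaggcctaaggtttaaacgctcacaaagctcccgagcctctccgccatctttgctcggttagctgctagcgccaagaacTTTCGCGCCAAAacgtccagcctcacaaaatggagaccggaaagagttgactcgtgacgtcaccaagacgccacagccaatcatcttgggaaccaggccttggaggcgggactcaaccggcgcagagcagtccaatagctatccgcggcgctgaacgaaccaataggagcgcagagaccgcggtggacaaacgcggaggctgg

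**Figure D2:**
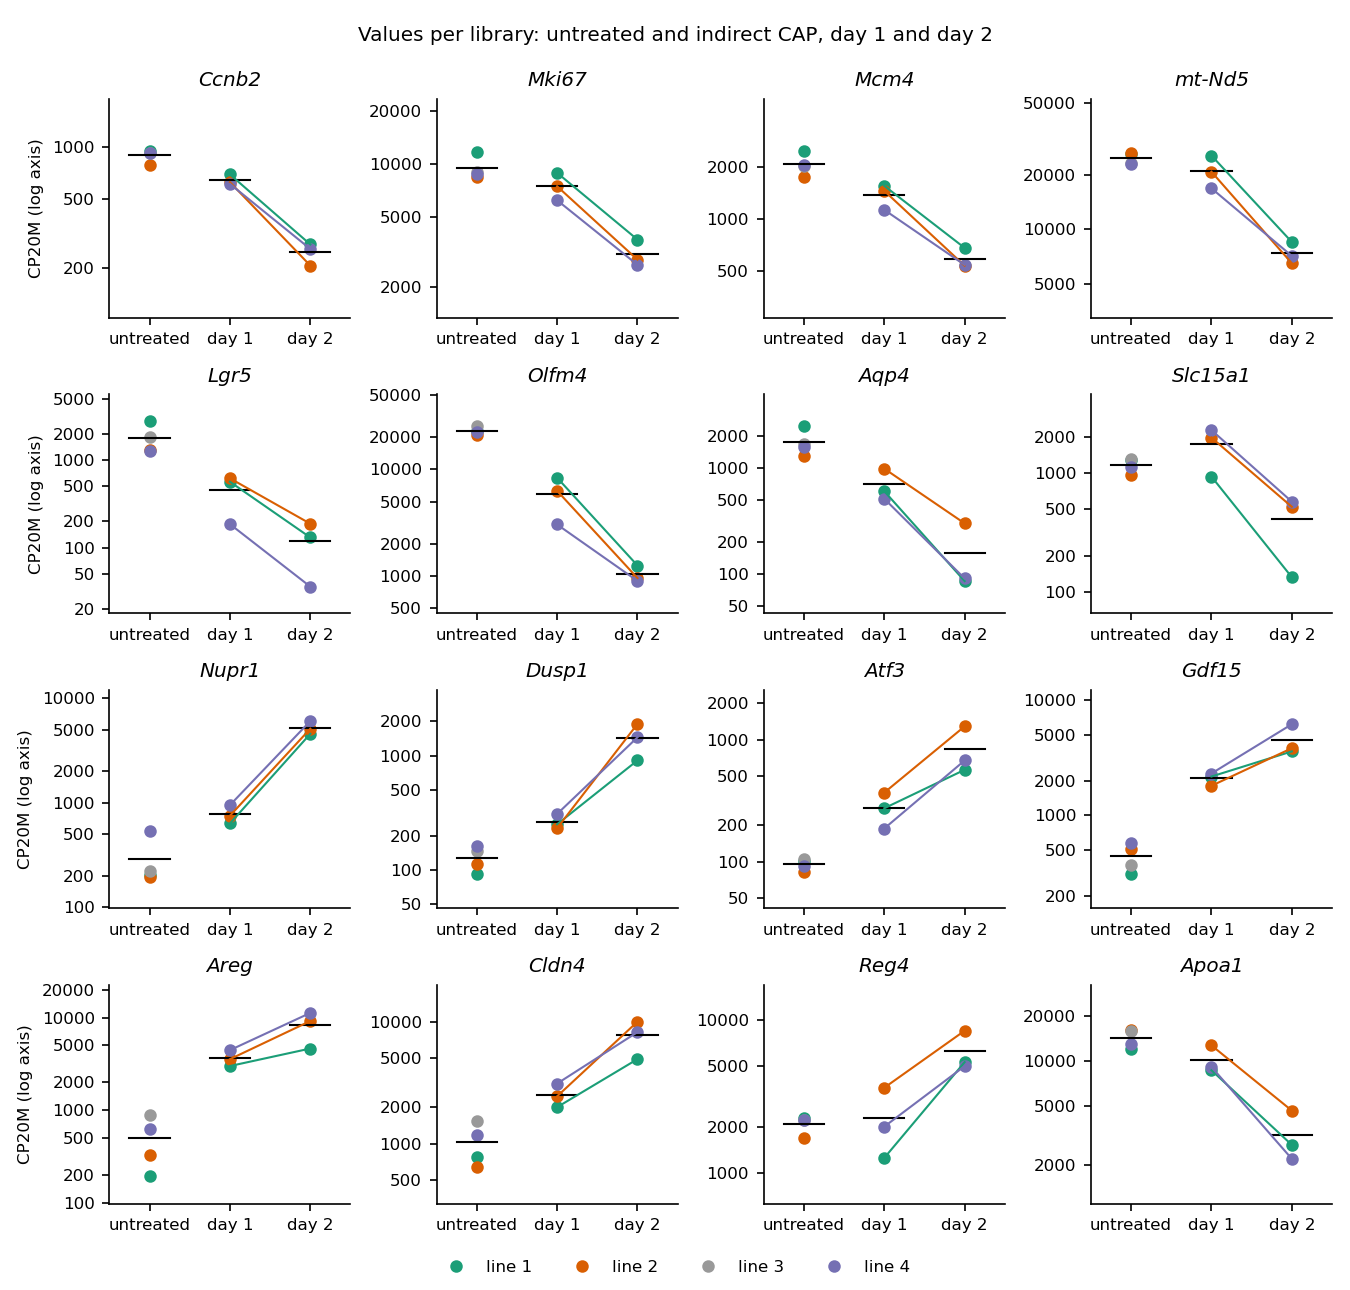
CP20M of 16 genes in each library on log axes, for untreated organoids (4 libraries), day 1 and day 2 of indirect CAP (3 each); colours mark the line, thin lines join the libraries of 1 line and black bars are means. Ccnb2, Mki67, Mcm4 and mt-Nd5 were lower at day 2 in each of the 3 lines, and Nupr1, Dusp1, Atf3 and Gdf15 were higher in each.

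Transcripts of the mitochondrial genome had lower values at day 2, and several fell. This genome encodes subunits of respiratory chain complexes along with rRNAs and tRNAs. Of 13 protein-coding members, 11 passed the filter on low values and were tested. All 11 had a negative fold change, 5 were called lower (background 1.42%) and the median was -1.35. mt-Nd5, a subunit of complex I, was 25523, 20772 and 16820 at day 1 and 8488, 6474 and 7108 at day 2, and untreated libraries held 22970 to 26260 (log2 fold change -1.50 ± 0.13 (SE), adjusted p = 5.18e-05). At day 1 line 1 lay within the untreated range and lines 2 and 4 under it, and at day 2 all lines lay under it. By the same limma fit, mt-Nd6, encoded on the opposite strand, with reads that cannot be told apart unless counting used strand, was 4193, 3228 and 2657 at day 1 and 1310, 835 and 944 at day 2 (log2 fold change -1.71, adjusted p = 9.27e-05). mt-Nd4 went from 6847, 5232 and 4245 to 2283, 1626 and 1833 (log2 fold change -1.49), mt-Nd2 fell by 1.35 and mt-Cytb by 1.28 on that scale. mt-Co1, the catalytic subunit of complex IV, passed on significance (adjusted p = 0.000435) but not the fold (-0.86). These 5 members were called in each of the 6 fits that left out 1 library, and 0 were called without the block. All mitochondrially encoded genes made up 1.05 to 1.50% of the total at day 1, 0.72 to 0.83% at day 2 and 1.24 to 1.54% in untreated libraries, so that the groups did not overlap. This share holds only reads counted for these genes, and whether reads were shared with similar sequences elsewhere was not tested. Of 34 nuclear genes of the respiratory chain, 0 were called, which is near the share over all genes. Of these 34, 31 were negative (median -0.14), against 54.4% of all genes tested. By line the median was -0.19 in line 1, -0.25 in line 2 and 0.02 in line 4. In 13 of the 34, every day 2 value lay below every day 1 value, against 14.2% of all genes tested. Within this nuclear list, Atp5b, the beta subunit of ATP synthase, was 30187, 28715 and 27109 at day 1 and 27827, 28470 and 28561 at day 2 (log2 fold change -0.02 ± 0.09 (SE), adjusted p = 0.921).

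Several stress genes rose. Transcription of immediate early genes starts within minutes of a stimulus and needs no new protein. In a list of 30 such genes, 8 were called higher and 1 lower (background 0.573% and 1.42%), and the median was 0.52. Dusp1, the phosphatase that turns off p38 and JNK kinases, was 251, 232 and 309 at day 1 and 911, 1901 and 1452 at day 2 (untreated 92 to 163). Every day 2 value was above the highest day 1 value (log2 fold change 2.37 ± 0.41 (SE), adjusted p = 0.00199). Atf3, a stress-induced repressor of transcription, was 274, 368 and 187 at day 1 and 566, 1284 and 675 at day 2 and 83 to 106 untreated (log2 fold change 1.56, adjusted p = 0.000778). Line 2 had the highest Atf3 value in both groups. Jun (1.14), the zinc finger factor Klf6 (1.15), Csrnp1 (1.05), the nuclear receptors Nr4a2 (1.13) and Nr4a3 (1.32) and the ERK phosphatase Dusp5 (from 1178, 1333 and 1889 to 2055, 3415 and 3395) were called as well. Nr4a3 was low, at 14, 16 and 20 at day 1 and 44, 46 and 38 at day 2. Fosb, a partner of Jun in AP-1, went the other way, with 811, 248 and 160 at day 1 and 224, 67 and 75 at day 2 (log2 fold change -1.60 ± 0.34 (SE), adjusted p = 0.00681), and its groups overlapped because line 1 was above the other lines at both days. Fos itself had a fold change of 0.04 (adjusted p = 0.925). The number called higher was 2 without the day 1 or the day 2 library of line 2, 3 without the day 1 library of line 4 or the day 2 library of line 1, and 6 to 7 without the others, and 0 without the block. Fosb was called in none of those fits. Pseudocount 10 and no filter on low values each gave 6.

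ATF4 and its targets form the integrated stress response, which couples low amino acid supply or misfolded protein to reduced translation. Of 41 genes, 3 were called higher and 0 lower (background 0.573% and 1.42%), 36 had a positive sign and the median was 0.36. Nupr1 had the largest change of the list (log2 fold change 2.76 ± 0.26 (SE), adjusted p = 7.71e-05), and untreated organoids held 194 to 539. Ppp1r15a, the phosphatase subunit that restores translation, was 383, 445 and 412 at day 1 and 706, 1101 and 938 at day 2 (untreated 188 to 223, log2 fold change 1.12, adjusted p = 0.00101). Gdf15, a secreted stress cytokine and also a p53 target, was 2167, 1800 and 2302 at day 1 and 3582, 3818 and 6168 at day 2, against 310 to 570 untreated (log2 fold change 1.08, adjusted p = 0.00185). Day 1 already held more Gdf15 than any untreated library. Atf4 itself was 4500, 5464 and 3478 at day 1 and 6513, 11661 and 8100 at day 2 and missed the fold limit (log2 fold change 0.95 ± 0.12 (SE), adjusted p = 0.000411). Ddit3, the CHOP factor, had a fold change of 0.68 (adjusted p = 0.0131), and when the adjusted p alone, under 0.05, decided, 17 members were higher and 0 lower. Nupr1 and Ppp1r15a of this list were called in each fit that left out 1 library, as was Atf3 of the immediate early list. Gdf15 was lost without the day 1 library of line 2 or 4 and without the day 2 library of line 2 or 4.

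The windows of Atf3 and Nupr1 are printed since both genes rose in each line and hold the C/EBP-ATF response element (CARE, searched as TGATGNAA on both strands), which ATF4 is known to bind. Both were picked for holding a match, and Atf3 is not a member of the ATF4 list. Whether genes with a CARE rose more than others was not tested. In each window the match (capitals, reverse strand) began at position -110 from the start. In the ATF4 list, 34 of 41 genes had 39 windows and 11 of these held a CARE (28.2%), compared with 3.97% of all windows. This share describes the list as chosen and would be the same whatever its members' values. Binding by ATF4 was not tested. For the immediate early genes, 25 of 30 had 36 windows, of which 3 held the cAMP response element (CRE, searched as TGACGTCA; 8.33% against 1.79%) and 1 the AP-1 site (searched as TGANTCA; 2.78% against 7.81%). Atf3 lay in chr1:191183284-191183583 and Nupr1 in chr7:126625421-126625720, both on the minus strand.
Atf3: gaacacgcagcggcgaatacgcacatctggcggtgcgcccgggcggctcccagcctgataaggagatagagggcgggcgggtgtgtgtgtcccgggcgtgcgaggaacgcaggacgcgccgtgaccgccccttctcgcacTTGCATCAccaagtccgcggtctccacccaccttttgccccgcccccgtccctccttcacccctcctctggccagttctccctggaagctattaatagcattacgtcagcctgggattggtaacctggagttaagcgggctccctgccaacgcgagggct
Nupr1: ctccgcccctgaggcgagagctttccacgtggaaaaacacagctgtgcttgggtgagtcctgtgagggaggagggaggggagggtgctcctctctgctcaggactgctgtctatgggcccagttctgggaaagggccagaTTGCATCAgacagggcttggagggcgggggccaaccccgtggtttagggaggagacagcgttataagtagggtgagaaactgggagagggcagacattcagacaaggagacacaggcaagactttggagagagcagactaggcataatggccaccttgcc

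**Figure D3:**
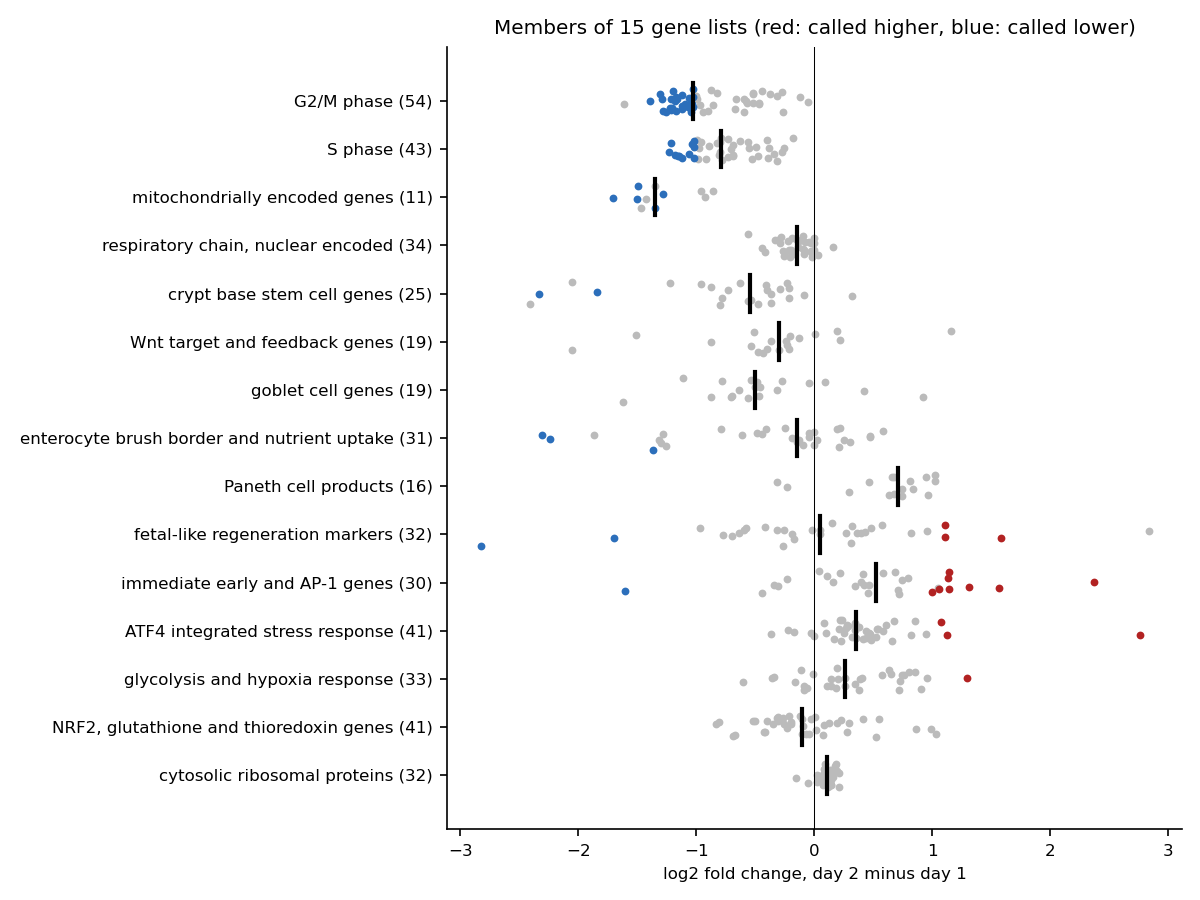
Each point is a tested member of 1 of 15 gene lists (rows, with the number of members tested), placed by its log2 fold change, day 2 minus day 1; red points were called higher, blue called lower, grey neither, and the black bar is the list's median. The G2/M, S phase and mitochondrially encoded members all lie left of 0, with medians of -1.03, -0.79 and -1.35.

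Crypt base stem cell genes had lower values at day 2, and the number past the threshold depended on the fit. Of 25 tested, 24 were negative and 2 were called lower (median -0.55, background 1.42%), of which Aqp4 passed whichever library was left out. The paired fit on the 6 indirect libraries alone called 5 of 24, adding Lgr5, Olfm4 and Smoc2, pseudocount 10 called 4 and quantile normalization 3. Aqp4, a water channel, was 606, 988 and 514 at day 1 and 86, 301 and 91 at day 2, and untreated libraries held 1309 to 2484 (log2 fold change -2.33 ± 0.35 (SE), adjusted p = 0.000944). Clca3b was 7001, 6219 and 5222 at day 1 and 1207, 2238 and 1818 at day 2 with 17543 to 27190 untreated (log2 fold change -1.84, adjusted p = 0.00527), and its call was lost with any 1 library left out. Lgr5, the R-spondin receptor that marks crypt stem cells, was 566, 620 and 186 at day 1 and 131, 188 and 36 at day 2 and 1281 to 2822 untreated. It was lower at day 2 within each line, but the day 1 value of line 4 lay below the day 2 value of line 2, and the adjusted p missed the limit (log2 fold change -2.05 ± 0.50 (SE), adjusted p = 0.0158) but passed in the paired fit on 6 libraries (adjusted p = 2.67e-05, limma). Olfm4, a secreted stem cell marker, was 8373, 6311 and 3046 at day 1 and 1255, 956 and 899 at day 2 (untreated 20867 to 25431). Its groups did not overlap, at log2 fold change -2.41 ± 0.55 (SE), adjusted p = 0.0114, and the paired fit on 6 libraries gave an adjusted p of 2.56e-05. Smoc2, a matricellular stem cell marker, was 2985, 2753 and 1408 at day 1 and 1039, 1081 and 807 at day 2 (log2 fold change -1.22, adjusted p = 0.0254, and 0.000133 in the paired fit on 6 libraries). Axin2, the feedback inhibitor that reads out Wnt signalling, was 2773, 2598 and 1096 at day 1 and 1291, 1317 and 752 at day 2 (log2 fold change -0.87, adjusted p = 0.14), and 0 of 19 Wnt target and feedback genes were called (median -0.30), against Lgr5 lower and Bambi higher in the paired fit on 6 libraries. Among these Ccnd1, cyclin D1, had the highest CP20M, with 9003, 6464 and 9368 at day 1 and 9212, 3497 and 5863 at day 2 (log2 fold change -0.51, adjusted p = 0.199).

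Secretory lineages differed in the direction of their medians. Paneth cell products, the antimicrobial peptides of the crypt base, had 14 of 16 members positive, a median of 0.71 and 0 called. Lyz1, Paneth lysozyme, whose reads can be shared with its close paralog Lyz2, was 7179, 11584 and 3757 at day 1 and 13497, 15319 and 8599 at day 2, with untreated libraries at 15122 to 20706 (log2 fold change 0.84, adjusted p = 0.11). Summed over the list, the values were 10073 to 24522 at day 1, 19590 to 32324 at day 2 and 37223 to 50002 untreated. Goblet cell genes were negative in 16 of 19, with a median of -0.50 and 0 called. Fcgbp, a mucus protein, was 60823, 102426 and 98422 at day 1 and 55794, 63420 and 45780 at day 2 (adjusted p = 0.258). Of 26 enteroendocrine genes, 12 were positive and 14 negative (median -0.02), and the paired fit on 6 libraries called Nts lower. The main fit called 1, Reg4, a secreted lectin of enteroendocrine and deep crypt secretory cells. It was 1247, 3610 and 2003 at day 1 and 5320, 8561 and 5008 at day 2 with 1688 to 2292 untreated (log2 fold change 1.55 ± 0.18 (SE), adjusted p = 0.000212), and the call was kept with each library left out. None of 9 tuft cell genes was called, and Ptgs1, the cyclooxygenase-1 gene, was 144, 102 and 465 at day 1 and 532, 242 and 570 at day 2 (adjusted p = 0.0132), and was called higher in the paired fit on 6 libraries.

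A few absorptive genes fell. Of 31 brush border and nutrient uptake genes, 3 were called lower and 0 higher (background 1.42% and 0.573%), with a median of -0.15. With a library left out 1 or 2 passed, whereas the paired fit on 6 libraries called 8 lower. Slc15a1, the peptide transporter PepT1, was 939, 1996 and 2308 at day 1 and 134, 523 and 578 at day 2 and 963 to 1317 untreated (log2 fold change -2.24 ± 0.24 (SE), adjusted p = 0.000102). Line 1 was lowest in both groups, and the groups did not overlap. The gene lies at chr14:121459621-121505252 on the minus strand (GRCm38). Lct, lactase, was 119, 1027 and 32 at day 1 and 24, 111 and 11 at day 2 (log2 fold change -2.31, adjusted p = 0.00579) with groups that overlapped, since the day 2 value of line 2 lay above the day 1 value of line 4. Among 31 genes of lipid absorption, 2 were called lower (background 1.42%), and 5 in the paired fit on 6 libraries. Apoa1, the main apolipoprotein of HDL, was 8654, 12697 and 9109 at day 1 and 2732, 4640 and 2203 at day 2 (log2 fold change -1.72 ± 0.33 (SE), adjusted p = 0.00388), and the fatty acid receptor Cd36 was 552, 1165 and 425 at day 1 and 261, 500 and 162 at day 2 (log2 fold change -1.23, adjusted p = 0.00528). Pparg, a nuclear receptor of lipid genes, was 1360, 1197 and 1981 at day 1 and 1463, 1253 and 2286 at day 2 (adjusted p = 0.471). Without 1 library at a time, Slc15a1 kept its call in 6 of 6 fits, Lct in 1 of 6, and Apoa1 and Cd36 in 0. Summed over the 31 absorptive genes the groups overlapped, at 209900 to 266005 for day 1 and 205877 to 228484 for day 2.

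**Figure D4:**
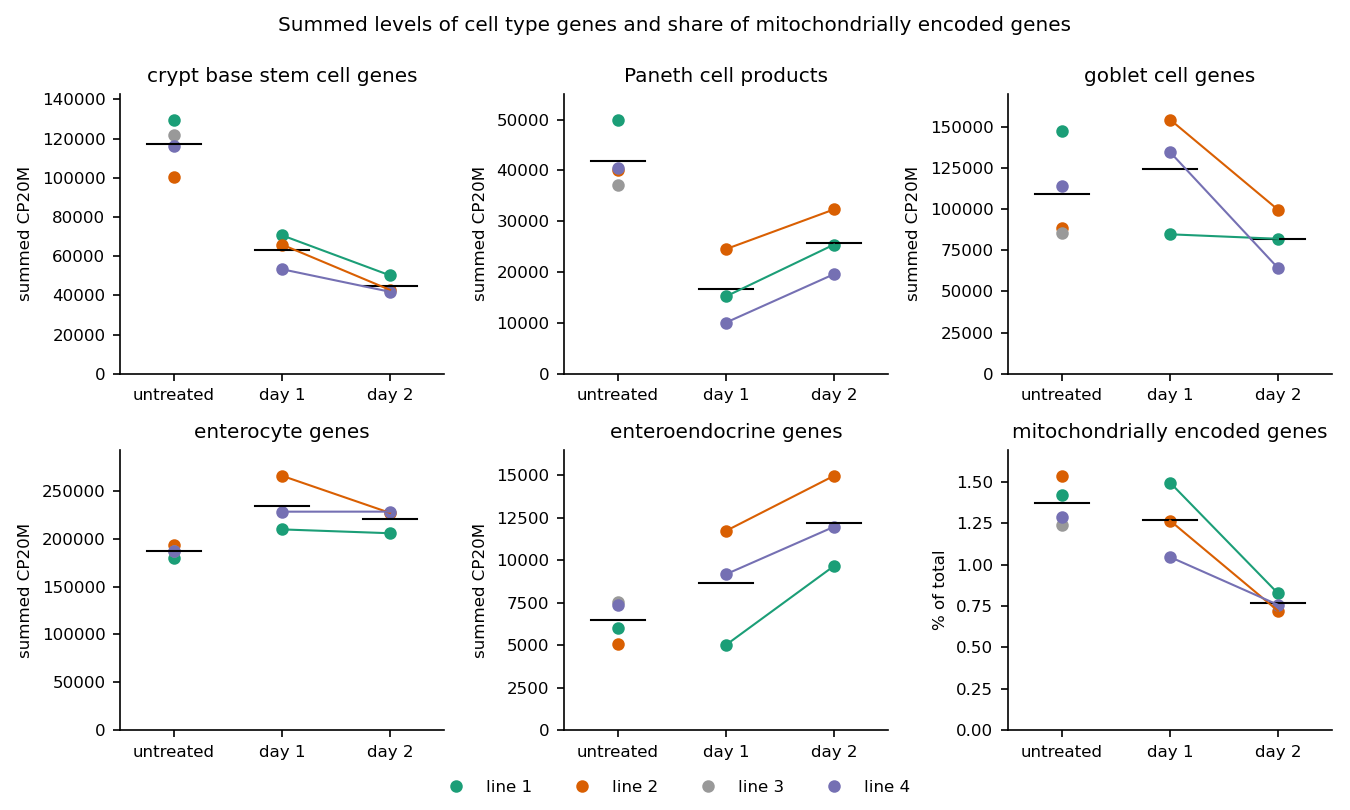
Summed CP20M of 5 lists of cell type genes and the percent of the total held by mitochondrially encoded genes, per library; colours mark the line, thin lines join libraries of 1 line and black bars are means. The mitochondrial share was 0.72 to 0.83% at day 2 and 1.05 to 1.50% at day 1, whereas the enterocyte sums of the groups overlapped.

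The largest rises and falls among called genes with separate groups and a mean of at least 100 in the higher group came from varied functions, and all 20 are named in the text. Fxyd2, a regulator of the sodium pump, was 6, 0 and 2 at day 1 and 580, 12 and 154 at day 2 (log2 fold change 5.26 ± 0.96 (SE), adjusted p = 0.00297), with line 2 low at day 2 and the 3 day 1 values near 0. Ranbp3l was 153, 17 and 75 at day 1 and 3189, 391 and 1074 at day 2 with 14 to 392 untreated (log2 fold change 4.21, adjusted p = 9.27e-05). The protein-coding gene lies at chr15:8967949-9067335 (GRCm38, GENCODE vM21, plus strand). As for Fxyd2, line 1 was highest and line 2 lowest at both days. Plat, tissue plasminogen activator, was 232, 153 and 553 at day 1 and 3490, 850 and 2194 at day 2 (untreated 39 to 197, log2 fold change 2.79). Spp2 (3.42), Tpbgl (2.25), the TNF family ligand Tnfsf15 (2.05), the pentraxin Nptx2 (1.91) and the Ras GTPase activator Rasal1 (1.90) completed the 10 with Nupr1 and Dusp1. Of the 10, Ranbp3l, Plat, Nupr1, Tnfsf15 and Rasal1 kept their call with each library left out, whereas Spp2 and Nptx2 passed in 5 of 6 fits, Dusp1 in 2 (lost without the day 1 library of line 2 or 4 or the day 2 library of line 1 or 2) and Fxyd2 and Tpbgl in 1.

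The 10 largest falls were taken among genes whose groups did not overlap, which leaves out Lct. Slc13a2, the sodium-coupled citrate and succinate carrier, was 115, 204 and 169 at day 1 and 9, 57 and 16 at day 2 (untreated 113 to 244, log2 fold change -2.89, adjusted p = 0.00123). Slc16a9 (-2.98), the sugar phosphate exchanger Slc37a2 (-2.52) and Slc47a1 (-2.14), the organic cation exporter MATE1, were among the 10 as well, as were Slc15a1 and Aqp4. Ctgf, a matricellular protein and a target of YAP, was 625, 284 and 212 at day 1 and 102, 44 and 22 at day 2 (log2 fold change -2.83 ± 0.29 (SE), adjusted p = 9.51e-05). Its untreated values were 30 to 190, so that day 1 was above that range and day 2 within or under it. Mup20, a major urinary protein and lipocalin, was 89, 149 and 367 at day 1 and 11, 12 and 58 at day 2 (untreated 19 to 118, log2 fold change -3.03), and its reads can be shared with near-identical Mup paralogs. Oas1f, an oligoadenylate synthetase paralog, was 178, 94 and 123 at day 1 and 37, 19 and 23 at day 2 (log2 fold change -2.28), and Gdpd2, a glycerophosphodiesterase, was 160, 221 and 247 at day 1 and 19, 65 and 55 at day 2 (log2 fold change -2.30). With 1 library left out at a time, Slc16a9 was lost in all 6 fits, Gdpd2 passed in 3, Slc13a2 and Slc47a1 in 4, and the other 6 genes in each.

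In a list of 32 fetal-like regeneration markers, 3 were called higher, 2 lower (background 0.573% and 1.42%) and the median was 0.05. Areg, amphiregulin, an EGF receptor ligand, was 3005, 3562 and 4455 at day 1 and 4639, 9171 and 11214 at day 2 with 198 to 882 untreated (log2 fold change 1.11 ± 0.23 (SE), adjusted p = 0.00729). Cldn4, a tight junction claudin, was 1987, 2439 and 3101 at day 1 and 4922, 9977 and 8196 at day 2 and 643 to 1523 untreated (log2 fold change 1.58, adjusted p = 0.00248). Day 1 was already above untreated for both genes. Tnfrsf12a, the TWEAK receptor, rose (log2 fold change 1.11), and Vsig1 fell by 1.69 beside Ctgf. Areg and Tnfrsf12a lost their call with any 1 library left out and Cldn4 in 4 of 6 such fits. Of 41 interferon-stimulated and inflammatory genes, Cxcl10 (from 5, 11 and 10 to 15, 129 and 105) and Cxcl16 (from 1395, 1395 and 3112 to 3918, 3184 and 5927) were called higher. Cxcl10 passed in 1 and Cxcl16 in 3 of the 6 fits with a library left out. A list of 17 aquaporins and enzymes that produce peroxide or nitric oxide held 1 call higher and 2 lower. Nos2, the inducible nitric oxide synthase, was 93, 208 and 1711 at day 1 and 559, 767 and 4045 at day 2, a rise in every line (log2 fold change 1.90 ± 0.23 (SE), adjusted p = 0.000282) with overlapping groups because line 4 was high at both days. Aqp4 and Noxa1, an activator of NADPH oxidase 1 (from 268, 284 and 437 to 102, 114 and 191), were called lower. Sat1, the enzyme that acetylates polyamines for export, was 2640, 2795 and 3031 at day 1 and 5681, 5749 and 7251 at day 2 (log2 fold change 1.13 ± 0.13 (SE), adjusted p = 0.000174), 1 call in 12 genes of polyamine metabolism.

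Calls among the defences against oxidants turned on the fit. None of 41 genes of NRF2, glutathione and thioredoxin metabolism (median -0.10), none of 17 ROS scavengers (median -0.22) and none of 14 metallothioneins and zinc transporters (median -0.08) was called. Hmox1, heme oxygenase 1, was 236, 232 and 393 at day 1 and 501, 477 and 703 at day 2 with 66 to 155 untreated. Its groups did not overlap and its adjusted p passed, but its fold lay just under the limit (log2 fold change 0.99 ± 0.16 (SE), adjusted p = 0.00148). It was called with quantile normalization, with median-ratio scaling and without the day 1 library of line 1 or the day 2 library of line 4. The paired fit on 6 libraries called Me1 higher in its list, and Prdx4 was called lower among the scavengers without the day 2 library of line 4. The ferritin heavy chain Fth1 was 26608, 28795 and 25861 at day 1 and 28969, 30805 and 32879 at day 2 (adjusted p = 0.293), and the peroxiredoxin Prdx1 was 8835, 8850 and 8614 at day 1 and 7555, 7308 and 7098 at day 2 (adjusted p = 0.245). The zinc importer Slc39a4 had a fold change of 0.31 (adjusted p = 0.146). Of 31 p53 targets, 11 were positive and 20 negative (median -0.09), with 2 called higher and 0 lower (background 0.573% and 1.42%). The 2 were Gdf15 and Pmaip1, the BH3-only protein Noxa. Pmaip1 was 603, 594 and 805 at day 1 and 1203, 1339 and 1482 at day 2 (log2 fold change 1.02, adjusted p = 0.000909). It was also the 1 call among 31 BCL2 family and caspase genes, and passed in 2 of 6 fits with a library left out. Among 12 cell death mediators named in the study, Atf3 was higher and Capn13, a calpain, lower (95, 97 and 187 at day 1 and 54, 20 and 32 at day 2, log2 fold change -1.85). The Capn13 call was lost with any 1 library left out and with no filter on low values. A list the study chose on these samples is no independent evidence of its direction. Pycard, the inflammasome adaptor ASC, was 1630, 1839 and 1167 at day 1 and 743, 1046 and 655 at day 2 (adjusted p = 0.072). Vegfa, the angiogenic factor, was 2353, 2609 and 1959 at day 1 and 7548, 4700 and 5010 at day 2 (log2 fold change 1.29 ± 0.21 (SE), adjusted p = 0.00142) and the 1 call among 33 genes of glycolysis and the hypoxia response (median 0.26), passing in 4 of 6 fits with a library left out.

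The remaining lists held 2 calls. Wipi1, a phosphoinositide-binding autophagy protein, was 343, 386 and 363 at day 1 and 190, 180 and 156 at day 2 (log2 fold change -1.05, adjusted p = 0.00403), in a list of 34 autophagy and lysosome genes of which 28 were positive. Plau, urokinase, fell from 62, 41 and 57 to 22, 19 and 24 among 36 cytoskeleton and integrin genes, and both calls were lost with any 1 library left out. There were 0 calls among 27 ER chaperones (highest CP20M for P4hb, log2 fold change 0.09), 22 heat shock genes (Hsp90ab1, -0.21), 35 genes of cholesterol and fatty acid synthesis (Scd2, -0.17), 33 genes of ribosome biogenesis (Ncl, -0.17), 32 ribosomal proteins (Rplp0, 0.09), 24 keratin and desmosome genes (Krt8, 0.02, which turned to -0.07 with quantile normalization) and 12 long noncoding RNAs (Malat1, 0.49). At an unadjusted p under 0.05, limma gave 5246 of the 19206 genes. Lists of non-epithelial and other gut markers also held 0 calls. The paired fit on 6 libraries called 3 heat shock genes and 1 gene of lipid synthesis higher, 2 keratin or desmosome genes and 1 goblet gene lower, and 1 fibroblast and 1 other gut marker higher. Postn (1.29), Laptm5 (-0.58), Vwf (-0.07) and Ret (-0.13) stood at values of 171 or less in every indirect library, and Onecut2, a homeobox factor, was 7781, 7041 and 9946 at day 1 and 12383, 10219 and 12204 at day 2 (log2 fold change 0.50, adjusted p = 0.0208).

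Plasma-activated medium (PAM), culture medium treated by the jet without cells, was given on the same 2 days to the same 3 lines, and its change from day 1 to day 2 was set beside that of indirect CAP. For PAM, 1579 of 19206 genes were called (8.22%), 614 higher and 965 lower. Of the 382 genes called with indirect CAP, 284 were called with PAM too (74.3% of the indirect and 18% of the PAM genes), all in the same direction. The sign in PAM was the same for 377 genes, opposite for 4, and 1 had a PAM fold change of 0. The medians were 1.40 (indirect) and 1.53 (PAM) over the 110 higher genes and -1.32 and -1.41 over the 272 lower genes. These medians are over genes chosen by the indirect change. When the difference between the 2 changes was tested in the same limma fit, 0 of 19206 genes were called, 2011 had an unadjusted p under 0.05 and 2 an adjusted p under 0.05. Within the 382, 80 had an unadjusted p of the difference under 0.05.

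The 2 genes at an adjusted p under 0.05 were Per2 and Slc14a1. Per2, a repressor of the circadian clock, was 874, 866 and 659 at day 1 and 557, 473 and 471 at day 2 with indirect CAP and 489, 469 and 387 at day 1 and 669, 713 and 526 at day 2 with PAM. It was lower at day 2 in each line with indirect CAP and higher in each with PAM, a difference of -1.17 ± 0.16 (SE) (adjusted p = 0.0264). Slc14a1, a urea transporter, was 160, 123 and 15 at day 1 and 19, 28 and 1 at day 2 with indirect CAP and 3, 6 and 0 at day 1 and 10, 8 and 0 at day 2 with PAM, where it was near 0 throughout (difference -3.31 ± 0.43 (SE), adjusted p = 0.0224). Reg4 was 1748, 6039 and 2296 at day 1 and 3036, 5326 and 2501 at day 2 with PAM, and its difference of 1.31 ± 0.26 (SE) did not pass (unadjusted p = 0.000139, adjusted p = 0.246). mt-Nd6 was 1374, 1975 and 1155 at day 1 and 1252, 913 and 855 at day 2 with PAM (difference -1.15 ± 0.24 (SE), unadjusted p = 0.000272, adjusted p = 0.29). At day 1 each PAM value of mt-Nd6 lay under each indirect value. For Clca3b the PAM values were 454, 1573 and 2347 at day 1 and 1289, 1526 and 1271 at day 2 (difference -2.04 ± 0.52 (SE), adjusted p = 0.303), and for Nupr1 786, 980 and 1263 at day 1 and 3562, 5165 and 16803 at day 2 (difference -0.01 ± 0.37 (SE), adjusted p = 0.996). In PAM the medians of the G2/M, S phase and mitochondrially encoded lists were -1.25, -1.08 and -0.73, with 33, 27 and 0 members called lower.

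**Figure D5:**
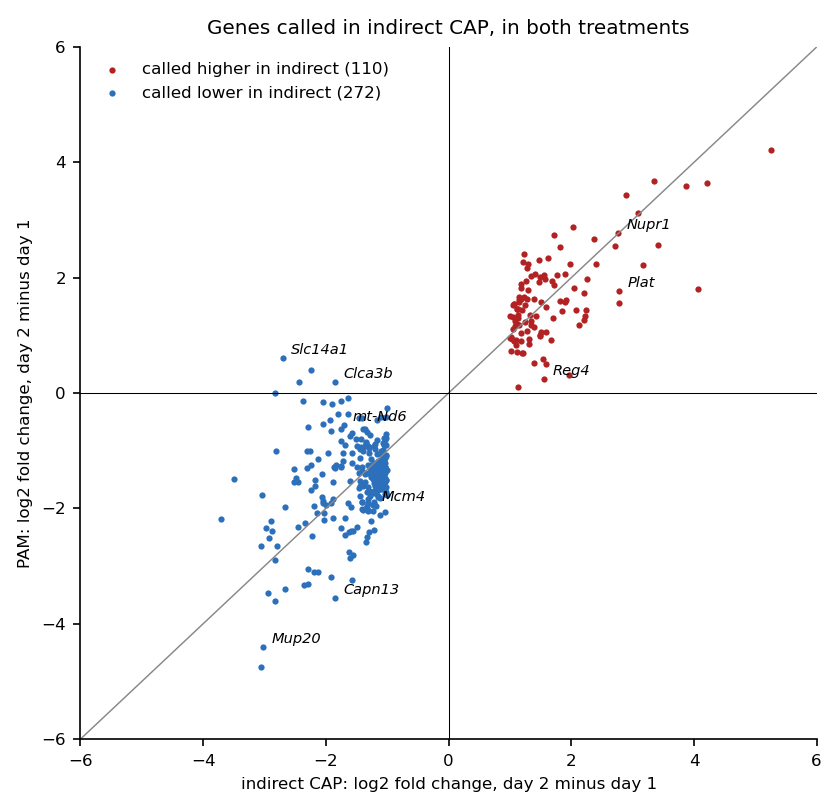
Each point is 1 of the 382 genes called with indirect CAP, placed by its log2 fold change, day 2 minus day 1, with indirect CAP (horizontal) and with PAM (vertical); the grey diagonal marks equal change. Of these genes 377 have the same sign in both, and Slc14a1 and Clca3b are among the 4 with opposite signs.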

How the data were processed

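RNA was sequenced by the study as paired reads of 100 bases. Per the labels, reads were trimmed with Trimmomatic 0.36, aligned with STAR 2.5.3a to GRCm38.p4 (mm10) and counted with HTSeq 0.9.1. The deposited values are a score named CP20M: read counts that the authors scaled to 20 M per library, in whole numbers that behave as rounded up, and not divided by gene length. Raw counts were not analysed here, so no count model was used.

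Genes with a value of at least 10 in at least 3 of the 18 treated libraries were kept, and log2(CP20M + 1) was fitted with limma 3.58.1 (R 4.3.3, trended moderated test, group and line as terms). A test on simulated data with 200 changed genes recovered 199, with 0 false calls. How many calls were false or missed in the measured libraries was not tested. Lines come from separate mice, and same-line libraries deviated from their group means together (r of 0.512 in line 1, 0.614 in line 2 and 0.730 in line 4, day 1 with day 2), so line was kept as a block. Reads per library were estimated from the spacing of low values, with an error of up to 3.58% in 5 simulated libraries, and the precision of low values is limited by counting error. Promoter windows came from RefSeq (GRCm38.p6), and gene positions from GENCODE vM21, which matched 52489 of 52636 genes. Motifs were counted in Python 3.11.15.

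The members, gene lists and tests were chosen with earlier results of these data known. Genes were named by a rule: the 10 largest rises and the 10 largest falls among called genes with 1 direction in all 3 pairs, separate groups and a mean of at least 100 in the higher group (no Gm or Rik clones or pseudogenes), up to 3 called genes per list and direction or else the member with the highest mean, genes named or stained in the study, and genes called for the difference from PAM, of which there were 0. Other genes in the text were chosen after their values were seen. Alternatives were other scalings, pseudocount 10, no filter, no block, fewer libraries and another threshold. Values of some called genes are not reported here.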

Additional observations from a re-analysis of the deposited data

Results flagged for a closer look

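Untreated libraries of lines 1 to 4 were checked for a single library far from the other 3, in each of 81 named genes, and 5 genes had one beyond Dixon's 95% critical value for 4 samples (gap to the nearest library divided by the range, on the log2 scale). Chance alone gives such a library in about 1 of 20 groups of this size. For Nupr1 the ratio was 0.882, with line 4 at 539 and the others at 194 to 219. Rasal1 had a ratio of 0.848, with line 4 at 51 and the others at 11 to 14. For Oas1f it was 0.864, with line 3 at 125 against 66 to 72. Reg4 had 0.878, with line 2 at 1688 and the others at 2208 to 2292, and Axin2 had 0.875, with line 1 at 5951 and the others at 4158 to 4349. No test of the 2 indirect groups used these untreated values.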

How the results depend on the processing

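The direction of each of the 54 called named genes held under all alternatives run, while the number of calls did not. Part of this was fixed in advance. Leaving out the block does not alter a fold change in this balanced design. The largest rises and falls were also chosen for 1 direction in all 3 pairs. Against 382 genes called in the report, quantile normalization gave 430 (166 higher, 264 lower), median-ratio scaling 380, pseudocount 10 gave 346 and no filter on low values 343. Without the replicate block, 7 genes were called. The 6 indirect libraries alone gave 623 genes with the block, of which 352 were among the 382, and 2 without it. The adjusted p alone, under 0.05, gave 2339. Leaving out 1 library gave between 136 and 290 genes, and between 27 and 38 of the 54 called named genes passed in such a fit. Of the 54, 25 passed in all 6 of these fits and 11 in none. The cause of these shifts was not tested. For the difference between indirect CAP and PAM the count was 0 in every alternative except 2 when the adjusted p alone, under 0.05, decided. Changes of sign were seen only in genes that were not called: Krt8 was -0.069 with quantile normalization and -0.042 to 0.060 with 1 library left out, Atp5b was 0.046 with quantile normalization, 0.016 with median-ratio scaling and -0.051 to 0.012 with 1 library left out, and with 1 library left out Vwf was -0.25 to 0.25 and Ret -0.36 to 0.16. List medians stayed within 1 SD of the 3 lines in 504 refits and moved further in 16. At 20.0 to 24.0 M reads a value of 10 stands for about 10 reads, so that changes of genes near the filter carry large counting error.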

Other observations

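Several further groups of genes were looked up after their values were seen, and are given as counts without a test. Over all genes tested, 0.573% were called higher and 1.42% lower. Of 18 mitochondrial tRNAs, 17 had a negative fold change and 7 were called lower (median -0.83, and -0.50 with PAM). Among those called, mt-Th, mt-Ts2 and mt-Tl2 lie between mt-Nd4 and mt-Nd5, and mt-Te and mt-Tt lie beside mt-Cytb. These genes are shorter than a read of 100 bases, so their counts can come from neighbouring transcripts and are no separate result. mt-Th, the histidine tRNA, was 710, 561 and 460 at day 1 and 185, 147 and 140 at day 2 in lines 1, 2 and 4. Among 40 kinesins, 7 were called lower and 0 higher, namely Kif20a, Kif11, Kif20b, Kif4, Kif15, Kif14 and Kifc1, and 6 of 20 centromere proteins were called lower with 19 of 20 negative. Of 281 genes with a solute carrier symbol, 10 were called lower and 1 higher. The higher one was Slc5a3, the sodium-coupled myo-inositol carrier, with 1490, 1171 and 1804 at day 1 and 8050, 2534 and 5395 at day 2 (untreated 863 to 1556). The 62 cytochrome P450 genes held 4 called lower and 0 higher, with 48 of 62 negative. Cyp2c70, a bile acid hydroxylase, was 134, 133 and 105 at day 1 and 24, 27 and 38 at day 2.

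Dual specificity phosphatases, which switch off MAP kinases, had 3 of 19 called higher (Dusp1, Dusp5 and Dusp8). Dusp8 was 331, 264 and 280 at day 1 and 844, 1190 and 979 at day 2. In a set of 21 tubulins with 16 negative, Tubb2a and Tubb2b were the 2 called higher, at 378, 347 and 706 against 1132, 1926 and 1891 for Tubb2a and at 674, 522 and 793 against 1958, 1565 and 2082 for Tubb2b, and the pair can share reads. Lgals3, the lectin galectin-3, was 1955, 1386 and 4019 at day 1 and 7646, 4197 and 9113 at day 2 (untreated 323 to 1557), whereas with PAM it was 8184, 4494 and 6442 at day 1 and 7064, 4877 and 19536 at day 2. The difference between both changes was 1.08 ± 0.41 (SE), with an adjusted p of 0.374 by limma.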
